A study of Mus musculus with 2 samples.

Results

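Candidate regulatory T cells of the mouse lung are described here as 270 cell barcodes out of 19087 that passed the quality limits. Of these members, 159 were in a control library and 111 in a library from lungs exposed to diesel exhaust particles (DEP). Foxp3 RNA was counted in 82 members, whose other markers fit the name regulatory T cell. In the other 188 it was not, and the name is not applied to them below. The members were selected on their own transcript counts, so the values that selected them are a description and support nothing. A barcode was a member when it held at least 1 unique molecular identifier (UMI, 1 counted RNA molecule) of Cd3e, Cd3d or Cd3g and none of Cd8a, Cd8b1, Cd79a or Ncr1. In addition it had to hold at least 1 Foxp3 UMI, or at least 4 UMIs of Ctla4, Ikzf2 and Tnfrsf4 together, and less than 1% of its UMIs could come from S100a8 and S100a9. The same T cell steps without the Foxp3 or 3-gene step gave 1088 control and 1038 exposed CD8-negative T cells, and those that were not members, 929 and 927, served as the comparison population.

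Immune cells bearing CD45 were sorted from perfused, enzyme-digested lungs, and 1 library was made per condition with a kit that counts the 3′ ends of transcripts. The control mice were not exposed, and the exposed mice breathed DEP at 500 µg/m³ in a whole-body chamber for 1 hour a day on 5 days a week over 2 weeks. Both libraries are labelled Ccr2-/-, the control as CD45.1+ and the exposed as CD45.3+, while the design text of the series speaks of wild-type C57BL/6J and Ccr2-/- mice, so the genotype, which both groups share by label, could not be checked. Ccr2 UMIs were present in 56 of 159 control and 30 of 111 exposed members, at 204 and 168 CPM (UMIs per 1000000 UMIs summed over the cells of a library), but a count at the 3′ end checks nothing where the deleted segment is not known. The age and number of the animals in each library are not stated. With 1 library per group no spread between animals was measured, no p-value was made, and every 95% interval covers counting error only. The condition also cannot be told apart from anything else in which these libraries differ, the CD45 label included.

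Regulatory T cells are CD4 T cells that restrain other lymphocytes. The transcription factor Foxp3 defines them, and they carry high-affinity IL-2 receptors, the inhibitory receptor CTLA-4 and the co-stimulatory receptors OX40 (Tnfrsf4) and GITR (Tnfrsf18). In the lung some recirculate through lymph nodes, with CCR7 on their surface, and others adopt a tissue program with the IL-33 receptor ST2 (Il1rl1), KLRG1, GATA3 and the epithelial growth factor amphiregulin (Areg), which is known for its part in lung repair.

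The 2 arms of the rule admitted different cells. Foxp3 UMIs were present in 47 control and 35 exposed members, and the other 112 and 76 entered through the 3-gene sum alone. Among the members with Foxp3, 72.3% and 65.7% held a UMI of Cd4, the co-receptor of helper and regulatory T cells, against 42.9% and 32.9% of the members without Foxp3 and 42.0% and 41.1% of the other CD8-negative T cells. Izumo1r, the folate receptor 4 of regulatory T cells, was present in 74.5% and 62.9% of members with Foxp3, 27.7% and 31.6% of those without, and 16.0% and 17.2% of the other cells. At least 3 of 6 markers that the rule did not use (Il2ra, Tnfrsf18, Izumo1r, Cd4, Nrp1 and Icos) were present in 80.9% of control and 85.7% of exposed members with Foxp3, but in 42.0% and 38.2% of members without it and 22.4% and 21.5% of the other cells. Median depth was alike, at 4912 and 5427 UMIs per cell with Foxp3, 5661.5 and 6118 without it and 5358 and 5755 in the other cells.

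Genes of the γδ T cell receptor were found in the members without Foxp3 and hardly in those with it. Their UMIs were present in 34.8% of control and 31.6% of exposed members without Foxp3, against 21.2% and 20.7% of the other CD8-negative T cells. After thinning each cell to 1500 UMIs these shares were 21.4% and 13.5% against 13.7% and 12.9%, so the exposed arm lay near the other cells. Trdc, the constant region of the δ chain, was above the other cells in the control arm, with a log2 ratio of CPM of 0.71 (0.49 to 0.92), but not beyond counting error in the exposed arm, at 0.13 (-0.18 to 0.44). A γδ UMI and no Cd4 was held by 28.6% and 31.6% of members without Foxp3 and by 18.6% and 18.1% of the other cells. None of the 47 control and 35 exposed members with Foxp3 did so, which allows shares of up to 7.55% and 10.0%. In the arm without Foxp3, Ikzf2, which encodes Helios, supplied 55.7% and 58.3% of the 3-gene UMIs, and 63 of 112 and 41 of 76 cells reached the limit of 4 on Ikzf2 alone. The name regulatory T cell therefore fits the markers of the Foxp3 arm, while the members without Foxp3 are called below by their rule.

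**Figure D1:**
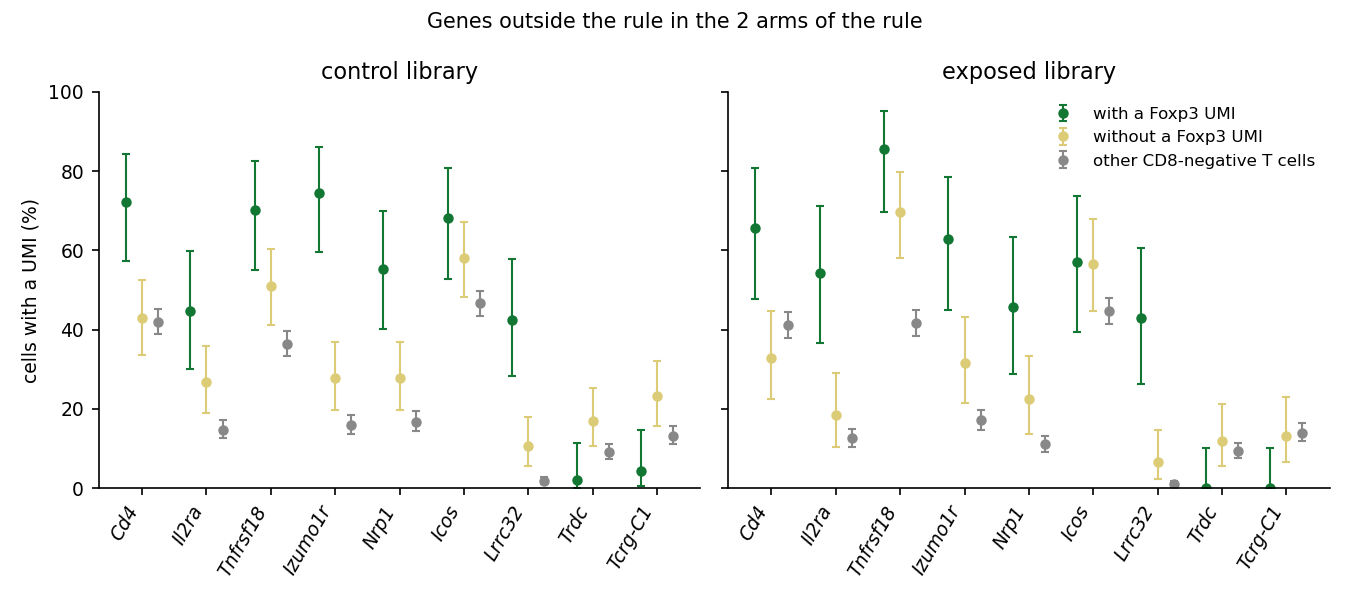
Share of cells with at least 1 UMI (y axis, %) of genes the rule did not use, in each library, for members with Foxp3, members without Foxp3 and the other CD8-negative T cells; points are shares and bars exact 95% intervals. Cd4, Izumo1r, Nrp1 and Lrrc32 stand highest in members with Foxp3 in both libraries, and Trdc and Tcrg-C1 stand lowest there.

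Foxp3 itself (chromosome X, 7573644 to 7595245, + strand, mm10) was sparse. Control members held 0 Foxp3 UMIs in 112 cells, 1 in 13, 2 in 18, 3 in 9 and 4 to 6 in the rest, and exposed members held 0 in 76, 1 in 14, 2 in 10, 3 in 6 and 4 to 8 in the rest. Of the members with Foxp3, 38 of 47 control and 31 of 35 exposed cells also reached 4 UMIs of the other 3 genes, so both arms of the rule met in them. In cell types that should lack Foxp3, background was near 0, at median depths of 2771 to 3743 UMIs. A UMI was held by 1 of 2144 control and 0 of 1897 exposed B cells, where 3 cells would be 0.158% of the latter. It was held by 0 of 2163 control and 0 of 2334 exposed neutrophils, where 3 cells would be 0.139% and 0.129%. Across the limit of the 3-gene sum, 26 control and 17 exposed members without Foxp3 lay just inside with 4 UMIs and 49 and 29 non-members just outside with 3. Cd4 was present in 30.8% and 35.3% of those just inside and in 46.9% and 65.5% of those just outside, and Il2ra, the α chain of the IL-2 receptor, in 34.6% and 17.6% against 26.5% and 17.2%.

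Members made up a smaller share of the exposed library. They were 1.64% of kept barcodes in the control library (interval 1.40% to 1.91%) and 1.18% (0.973% to 1.42%) in the exposed library, a ratio of 0.720 with an interval of 0.560 to 0.923. Among CD8-negative T cells the shares were 14.6% (12.6% to 16.9%) and 10.7% (8.88% to 12.7%), a ratio of 0.732 with an interval of 0.569 to 0.938. The members without Foxp3, 112 of 159 control and 76 of 111 exposed members, were 10.3% and 7.32% of CD8-negative T cells. Their ratio was 0.711 (0.524 to 0.960). The members with Foxp3 were 4.32% and 3.37% of CD8-negative T cells, a ratio of 0.781 whose interval of 0.489 to 1.24 spans 1. The intervals of the 2 arms overlap widely, so the lower share could not be placed in 1 of them. For members with Foxp3, a lower share was thus not detectable at this number of cells. That holds only for barcodes that passed every step of the rule. Of all kept barcodes, 70 control and 45 exposed held a Foxp3 UMI. The rule left out 23 and 10 of these, 14 and 2 of them with a Cd79a UMI. No ratio was formed for that wider set.

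Thinning to a common depth left the same order. Each barcode was reduced at random to 1500 UMIs and the rule applied again, which kept 9430 of 9691 control and 9192 of 9396 exposed barcodes and left out the shallower ones. Thinning also removes UMIs by which the rule excludes a barcode. CD8-negative T cells then numbered 1159 and 1104, against 1088 and 1038 from all UMIs. Thinned members can thus include cells that were not members at full depth. Members then numbered 56 and 32, 4.83% and 2.90% of CD8-negative T cells, with a ratio of 0.600 (0.376 to 0.942). Members with Foxp3 numbered 21 and 14, with a ratio of 0.700 (0.329 to 1.44). The libraries shared 23 barcode sequences by their letters, 1 of which was a member in 1 library and none in both.

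**Figure D2:**
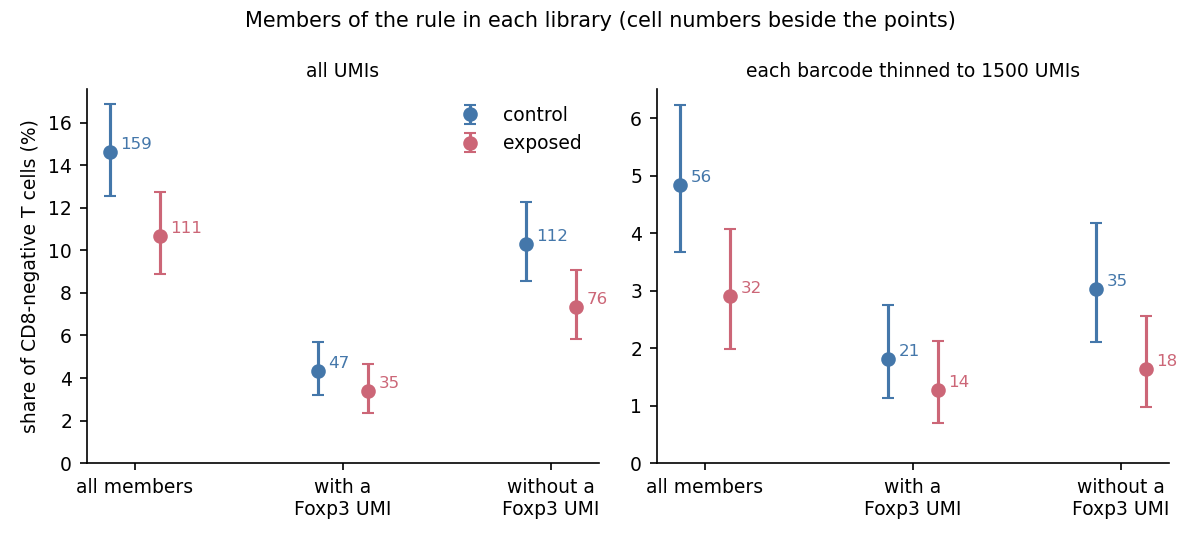
Members as a share of CD8-negative T cells (y axis, %), from all UMIs (left) and after thinning each barcode to 1500 UMIs (right; its axis differs), with cell numbers beside the points and exact 95% intervals as bars. Exposed points lie below control points in every class, and the intervals of the members with Foxp3 overlap widely.

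Members with Foxp3 differed from the other CD8-negative T cells in the same direction in both libraries for some genes known from regulatory T cells. Lrrc32, which encodes GARP, the surface anchor of latent TGF-β, stood at 105 CPM in control and 108 CPM in exposed members with Foxp3 against 3.75 and 2.40 CPM in the other cells. Its UMIs occurred in 20 of 47 and 15 of 35 of these members. Ikzf4 (Eos, a partner of Foxp3) stood at 40.5 and 38.3 CPM against 1.95 and 4.95 CPM. Gpr83, a receptor of regulatory T cells, stood at 23.8 and 45.3 CPM against 1.35 and 3.45 CPM. None of these 3 genes was part of the rule. Members without Foxp3 had less Lrrc32, at 21.9 and 19.5 CPM, and less Gpr83, at 5.21 and 3.54 CPM, though Lrrc32 was still above the other cells there. Their Ikzf4 stood at 14.6 and 28.3 CPM, and in the exposed library its log2 ratio over the other cells, 2.52 (1.56 to 3.42), overlapped that of the members with Foxp3, 2.95 (1.82 to 3.97).

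By the naming rule applied to the Foxp3 arm, a choice made after the data were seen, the genes highest over the other T cells in both libraries included Dusp4, a phosphatase that dampens MAP kinase signalling, at 107 and 66.2 CPM against 5.69 and 6.75 CPM. Klrg1, an inhibitory receptor of terminal effector cells, stood at 114 and 66.2 CPM against 13.5 and 6.00 CPM. Of the 49 Klrg1 UMIs of control members, 48 lay in the Foxp3 arm. Hopx, a cofactor of induced regulatory T cells, stood at 278 and 317 CPM against 73.0 and 86.4 CPM, and Itgav, the αv integrin, at 100 and 171 CPM against 30.7 and 19.7 CPM. Members without Foxp3 were above the other cells too for Hopx, at 184 and 253 CPM. The same held there for Dusp4, at 15.6 and 31.9 CPM, and Itgav, at 45.9 and 49.6 CPM. Glrx, Ass1, Lrig1, Cmtm7 and Ifi27l2a were also on that list. So was Cd209a, a dendritic cell gene whose UMIs lay in 3 of 47 control and 1 of 35 exposed cells, with 91.3% of the control UMIs in 1 cell.

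Genes of several kinds were lowest in the Foxp3 arm by the same rule. Pxdc1 had 0 UMIs in both libraries, against 62.5 and 59.7 CPM in the other T cells, and Pde3b, a cyclic nucleotide phosphodiesterase, stood at 21.4 and 10.5 CPM against 134 and 111 CPM. The macrophage genes C1qa, C1qb, C1qc and Pf4 were lower as well, with C1qa at 2.38 and 6.97 CPM against 159 and 102 CPM. Trdc stood at 30.9 CPM in control and had 0 UMIs in exposed cells, against 142 and 157 CPM, and the chemokine gene Cxcl1 had 0 UMIs in control and 6.97 CPM in exposed cells, against 54.2 and 75.8 CPM. Tcf7 and Lef1 were not among the genes named by that rule. Tcf7, the transcription factor TCF-1 of naive and memory T cells, stood at 119 and 209 CPM in the Foxp3 arm against 368 and 356 CPM. Its partner Lef1 stood at 117 and 153 CPM against 276 and 331 CPM. Ccr7, at 509 and 631 CPM, was above the other cells, which had 391 and 360 CPM. Its log2 ratios over them were 0.38 (0.17 to 0.58) and 0.81 (0.58 to 1.03).

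Members without Foxp3 carried some genes of innate-like T cells and NK cells, but not all such markers were raised. Klra1 and Klra7, which encode Ly49 receptors, stood at 44.8 and 67.8 CPM in control and 46.0 and 81.5 CPM in exposed cells, against 4.50 to 13.6 CPM in the other T cells. In members with Foxp3 they stood at 16.7 and 33.3 CPM in the control library, where the log2 ratio of Klra7 over the other cells was 1.29 (0.36 to 2.11), and both had 0 UMIs in the exposed library. Xcl1, a chemokine of NK and cytotoxic T cells, stood at 139 and 186 CPM against 51.8 and 74.6 CPM, and Cd7, a receptor of innate-like lymphocytes, at 138 and 197 CPM against 50.6 and 51.8 CPM. Il2rb, the β chain of the IL-2 and IL-15 receptors, stood at 571 and 492 CPM in this arm and at 288 and 254 CPM in members with Foxp3. Il17a, the cytokine of type 17 T cells, stood at 22.9 and 39.0 CPM here against 6.29 and 9.30 CPM in the other cells. It came from 5 and 3 cells. Xcl1, Cd7 and Il17a were likewise named from this arm after the data were seen. The NK cell list of 9 genes summed to 2354 and 3455 CPM here against 1534 and 1182 CPM. Its log2 ratios over the other cells spanned 0 for the NK marker Klrb1c, at 0.09 (-0.55 to 0.68) and -0.10 (-0.97 to 0.66). Trac, the constant region of the α chain, was above the other cells, at 0.24 (0.08 to 0.39) and 0.42 (0.23 to 0.60).

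**Figure D3:**
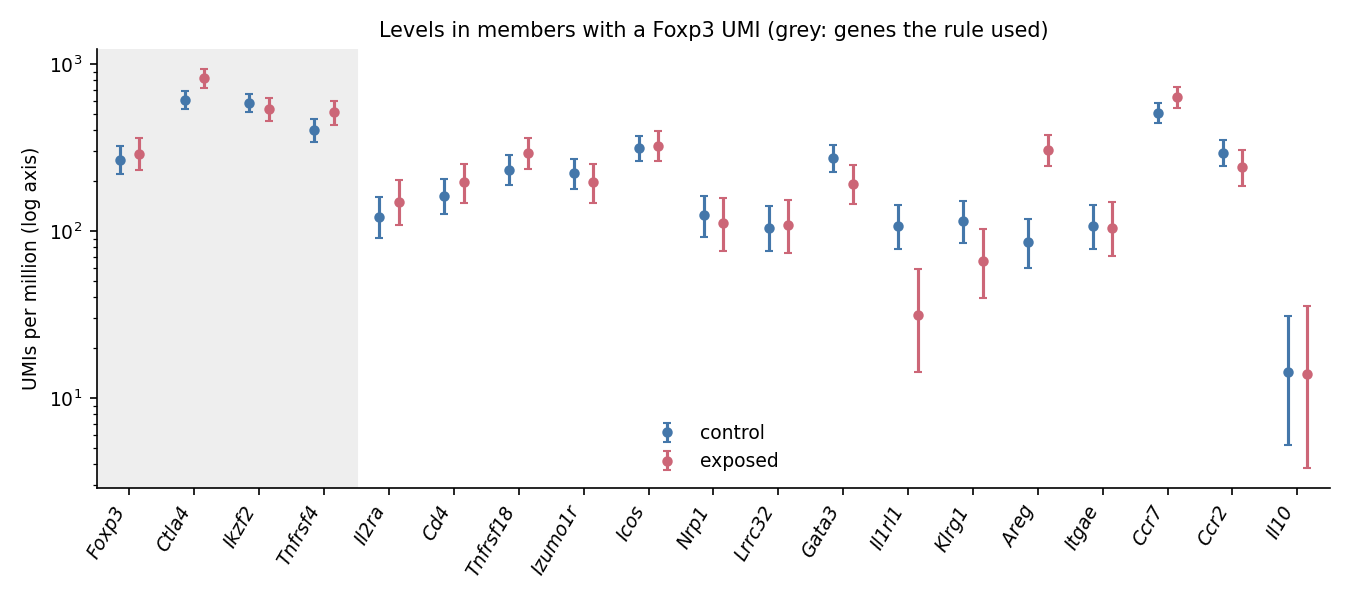
Levels of regulatory T cell genes (y axis, CPM, log axis) in the members with a Foxp3 UMI of the control (47 cells) and exposed (35 cells) libraries; bars are exact 95% Poisson intervals, and grey shading marks the 4 genes of the rule. Areg lies higher and Il1rl1 lower in the exposed library, while Il2ra, Izumo1r, Icos, Nrp1 and Lrrc32 overlap.

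Exposed and control members were then compared gene by gene, as the log2 ratio of CPM, exposed over control. Without a test, a gene counts here as higher or lower when its ratio passed 1.5-fold. Among 5305 genes with at least 50 UMIs in all members, 220 (4.15%) were higher and 529 (9.97%) lower in the exposed library. At a minimum of 20 UMIs, the one used for the gene lists below, 7.33% of 7956 genes were higher and 14.9% lower, and the median ratio was -0.07. For members with Foxp3 the shares were 11.6% higher and 16.4% lower of 4529 genes. For the other CD8-negative T cells, with many more cells, they were 2.90% and 9.12% of 11214 genes. The counts of each list are to be read against these shares, which were larger where fewer cells were summed. Whether ratios differ between members and the other T cells was not tested.

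None of the 4 genes of the rule passed 1.5-fold in the Foxp3 arm. Foxp3 in the Foxp3 arm was 267 CPM in control and 289 CPM in exposed cells, a log2 ratio of 0.12 with an interval of -0.31 to 0.54. Ctla4 stood at 612 and 819 CPM there, a ratio of 0.42 (0.16 to 0.68), and Tnfrsf4 at 400 and 512 CPM, a ratio of 0.36 (0.03 to 0.69), so both were higher beyond counting error. Ikzf2 stood at 585 and 537 CPM, a ratio of -0.13 (-0.43 to 0.17). These levels are given as a description, since the rule selected on them. The ratio of Ctla4 depended on few cells, since 26.4% of its exposed UMIs were in 1 cell and the ratio was -0.25 without the members rich in class II genes and -0.48 without proliferating members.

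Of 15 regulatory T cell signature genes outside the rule, 1 was past 1.5-fold higher and 1 lower in all members, with a median ratio of 0.05, against -0.02 in the other T cells. The 1 higher was Gpr83 (15 and 15 UMIs) and the 1 lower Socs2 (50 and 20 UMIs), both named for passing. In the Foxp3 arm Gpr83 and Ltb were higher and 0 lower, with a median of 0.04. Il2ra stood at 121 and 150 CPM in this arm, with UMIs in 21 of 47 and 19 of 35 cells and a ratio of 0.30 (-0.32 to 0.92). Icos, an inducible co-stimulator, stood at 314 and 324 CPM. Tnfrsf18 in all members stood at 154 and 221 CPM, with UMIs in 90 of 159 and 83 of 111 cells, a ratio of 0.51 (0.22 to 0.81) against 0.17 in the other T cells. Ltb, which encodes lymphotoxin β, stood at 299 and 359 CPM, Capg at 215 and 223 CPM and Il2rb at 485 and 412 CPM in all members. None of these passed 1.5-fold in all members.

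Of 17 genes of suppression, 12 had enough UMIs in the members, and Areg and Gzmb were higher and Cd83 lower, with a median ratio of 0.14 against -0.22 in the other T cells. Gzmb, the granzyme B gene, was named for passing, and 87.5% of its exposed UMIs came from 1 cell. Il10, the anti-inflammatory cytokine, was near the detection limit, with 6 UMIs in 2 control and 12 UMIs in 4 exposed members, of which 6 and 4 UMIs lay in 2 and 1 members with Foxp3. Tgfb1, which encodes latent TGF-β1, stood at 193 and 206 CPM in the Foxp3 arm, a ratio of 0.09 (-0.42 to 0.59). Cd83, a stabilizer of surface class II, stood at 209 and 127 CPM in all members, a ratio of -0.72, but at 269 and 272 CPM in the Foxp3 arm. Fgl2, a secreted suppressive protein, stood at 105 and 76.3 CPM and Lgals1, which encodes galectin-1, at 1115 and 901 CPM in all members.

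Areg, the amphiregulin gene (chromosome 5, 91139599 to 91148432, + strand), differed between the libraries in several cells. In the Foxp3 arm it had 36 UMIs in 10 of 47 control cells and 88 UMIs in 14 of 35 exposed cells, which is 85.7 CPM (60 to 119) and 307 CPM (246 to 378) and a ratio of 1.84 (1.26 to 2.44). The share of cells with Areg was 21.3% and 40.0%, and after thinning to 1500 UMIs it was 2 of 46 and 8 of 35. Single cells held at most 25.0% and 23.9% of the UMIs, so the higher exposed level did not rest on 1 cell. In members without Foxp3, Areg stood at 22.9 and 37.2 CPM and in the other T cells at 22.3 and 36.2 CPM, ratios of 0.70 in both. Outside the members rich in class II genes, Areg stood at 120 and 364 CPM in the Foxp3 arm. Where a Cd4 UMI and no Trdc UMI were required, the ratio in the Foxp3 arm was 0.39, and it was 3.97 where members with any UMI of another lineage were left out.

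Most genes of the tissue program lay below 0, in members and in the other T cells alike. Of 22 genes of effector and tissue regulatory T cells, 20 had enough UMIs in members, with Areg and Prdm1 higher, Il1rl1, Pparg and Id2 lower, a median ratio of -0.20 and 15 of 20 below 0. In the other T cells 17 of 21 were below 0, 8 were past 1.5-fold lower and the median was -0.50. Of all 7956 genes counted in members, 4525 were below 0. Il1rl1 (chromosome 1, 40429570 to 40465415, + strand), the receptor for the epithelial alarmin IL-33, had 76 UMIs in 15 control members and 13 UMIs in 8 exposed members, or 55.1 and 15.3 CPM, a ratio of -1.85 (-2.83 to -0.99). Members with Foxp3 had 107 and 31.4 CPM of it, in 8 of 47 and 5 of 35 cells. From all UMIs, the share of these cells with Il1rl1, 17.0% and 14.3%, differed little. The UMIs per positive cell differed more, with medians of 4.5 and 1. After thinning, Il1rl1 was present in 4 of 46 control and 0 of 35 exposed members with Foxp3. The intervals of these shares, 2.42% to 20.8% and 0% to 10.0%, overlap. A single exposed cell rich in class II genes held 5 Il1rl1 UMIs. Outside the members rich in class II genes, Il1rl1 stood at 174 and 18.2 CPM in the Foxp3 arm. In the other T cells Il1rl1 stood at 36.3 and 16.8 CPM, a ratio of -1.11 in the same direction.

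Klrg1 (chromosome 6, 122270596 to 122282882, - strand) stood at 114 and 66.2 CPM in the Foxp3 arm, in 11 of 47 and 4 of 35 cells. Its ratio of -0.79 (-1.64 to 0.01) rested on 1 exposed cell that held 15 of the 19 exposed UMIs, and was -3.22 without the members rich in class II genes. Gata3, the transcription factor of type 2 and tissue regulatory T cells, stood at 274 and 192 CPM in the Foxp3 arm, a ratio of -0.51, though 26.1% of its control UMIs were in 1 cell and its UMIs occurred in 57.4% and 71.4% of cells. Pparg, the nuclear receptor of tissue regulatory T cells and alveolar macrophages, had 25 UMIs in 12 control members and 1 UMI in 1 exposed member, with 13 and 1 UMIs in the Foxp3 arm. Ccr8, a chemokine receptor of skin and tumour regulatory T cells, had 3 and 1 UMIs in all members, too few for a ratio. Id2, an inhibitor of E proteins in effector and innate-like lymphocytes, was named for passing and stood at 486 and 227 CPM in all members, a ratio of -1.10 (-1.34 to -0.87). Its UMIs occurred in 81 of 159 and 46 of 111 members, and its ratio in the other T cells was -0.18. S100a4 stood at 1429 and 1067 CPM, S100a6 at 1587 and 1597 CPM in all members, and S100a10 was the other abundant gene of the list.

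Homing and quiescence genes leaned the other way in all members, but less clearly in the Foxp3 arm. Of 15 genes, 13 were above 0, with Lef1 past 1.5-fold higher and Dapl1 lower, and the median ratio was 0.26 against 0.02 in the other T cells. There 8 of the 15 were above 0, and of all 7956 genes counted in members 3431 were. In members without Foxp3, 13 of 15 were above 0, with a median of 0.36. In the Foxp3 arm 8 of 14 were, with 2 past 1.5-fold higher, 2 lower and a median of 0.13. Of all 4529 genes counted in that arm, 2118 were above 0. A difference between the arms was not tested. Klf2, the quiescence factor that drives S1pr1, stood at 532 and 746 CPM in all members, a ratio of 0.49 (0.33 to 0.64). Satb1 stood at 363 and 514 CPM and Lef1 at 145 and 224 CPM, ratios of 0.50 and 0.63. Ccr7, the lymph node homing receptor, stood at 340 and 409 CPM, in 45.3% and 55.0% of members. After thinning to 1500 UMIs its shares were 34.2% and 30.3%, with a ratio of -0.68 in the members drawn again from thinned barcodes. The list's median was also -0.04 in thinned members and without proliferating members, and -0.05 where members with any UMI of another lineage were left out, so its direction was not stable.

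Genes of other helper programs summed to 721 and 652 CPM in the Foxp3 arm, 722 and 708 CPM in members without Foxp3 and 515 and 461 CPM in the other T cells. In the Foxp3 arm 11 and 8 of the 16 genes were detected, and Gata3, described above, was part of that sum. Of the 16 genes, 12 had enough UMIs in all members, with 0 higher, Tbx21, Ifng and Il23r lower, and a median ratio of -0.14. Ifng, the cytokine of type 1 T cells, had 0 UMIs in the Foxp3 arm of both libraries, where 0 UMIs leaves an upper limit of 8.78 and 12.9 CPM. Tbx21, which encodes T-bet, had 7 UMIs in 2 control and 0 in exposed members with Foxp3, and stood at 25.4 and 9.39 CPM in all members, a ratio of -1.43 (-2.75 to -0.30). Il2, the cytokine that regulatory T cells consume and do not make, had 0 and 2 UMIs in the Foxp3 arm. Cxcr3, a receptor of type 1 cells, stood at 63.8 and 47.0 CPM in all members.

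Of 20 chemokine receptors and adhesion molecules, 18 had enough UMIs, with 1 higher and 0 lower and a median ratio of -0.15. The 1 higher was Ccr9, a gut-homing receptor, for which 88.6% of exposed UMIs were in 1 cell. Itgb7, the β7 integrin, stood at 387 and 349 CPM and Selplg, the ligand of P-selectin, at 455 and 390 CPM in all members. Itgae, the αE integrin of epithelium-bound cells, stood at 107 and 105 CPM in the Foxp3 arm against 34.3 and 20.9 CPM in the other T cells. Ccr2, the monocyte receptor named in the genotype, stood at 293 and 240 CPM in the Foxp3 arm.

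Signalling and stress genes gave few calls. Of 26 genes of T cell receptor and IL-2 signalling, 25 had enough UMIs, with 0 higher and 1 lower (Socs1, 43 and 13 UMIs) and a median ratio of 0.03. In the Foxp3 arm 22 genes of the list had enough UMIs, with 2 higher and 0 lower, where 11.6% and 16.4% of all genes were. The NF-κB subunit genes Rel and Nfkb1, named for passing there, stood at 250 and 453 CPM and at 347 and 540 CPM. Their ratios were 0.86 and 0.64, against -0.24 and -0.14 in the other T cells. Rel UMIs occurred in 30 of 47 and 26 of 35 cells of the Foxp3 arm. Nr4a1, an early gene of receptor stimulation, stood at 437 and 353 CPM and Nfkbia, the NF-κB inhibitor, at 1057 and 1079 CPM. Of 23 immediate early and heat shock genes, which tissue digestion is known to induce, 0 were higher and Hspa1a, Hspa1b and Hsp90aa1 lower, with a median of -0.02, and Junb stood at 1900 and 1969 CPM. Hspa1a, a heat shock gene, stood at 122 and 64.6 CPM in members, a ratio of -0.92, while in the other T cells its ratio was 0.82. Its UMIs came from 19 and 7 members, and 1 exposed cell held 56.4% of them.

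Few genes of the aryl hydrocarbon receptor list had enough UMIs, and no oxidative stress gene passed 1.5-fold in all members. Cyp1a1, the classical target of the aryl hydrocarbon receptor, had 0 UMIs in the members of both libraries and in the other T cells, with upper limits of 2.67 and 4.33 CPM in members. Of 9 genes of that receptor's list 5 had enough UMIs, with Lpar6 higher and Tiparp lower and a median of -0.23, beside -0.29 in the other T cells. In the Foxp3 arm 4 had enough UMIs, with 1 higher and 2 lower, where 11.6% and 16.4% of all genes were. Ahr, the receptor, stood at 58.0 and 49.3 CPM and its target Tiparp at 52.9 and 35.2 CPM. Of 19 NRF2 and oxidative stress genes 15 had enough UMIs, with 0 higher and 0 lower and a median of -0.13 in members and in the other T cells. Nqo1 had 1 UMI in each library.

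Of 22 type I interferon response genes 16 had enough UMIs, with Ifi27l2a and Bst2 higher, Oasl2 and Irgm1 lower and a median of 0.22, against 0.13 in the other T cells. Ifi27l2a, an interferon-induced gene, was the most abundant and stood at 840 and 1319 CPM in all members, a ratio of 0.65 (0.53 to 0.77). Members with Foxp3 had 1235 and 1958 CPM of it, in 40 of 47 and 32 of 35 cells, and the other T cells had 466 and 558 CPM. The ratio was -0.87 where members with any UMI of another lineage were left out. Of 15 glycolysis genes 0 were higher and Hk2 and Tpi1 lower, with a median of -0.26. Of 80 ribosomal protein genes 0 were higher and 1 (Rps27l) lower, with a median of 0.14 in members and 0.21 in the other T cells.

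Among the genes named for the size of their ratio, the higher ones formed no list of their own. Dusp10, a phosphatase of the p38 and JNK kinases, was spread over many cells: it stood at 157 and 291 CPM, a ratio of 0.89 (0.62 to 1.16), with UMIs in 80 of 159 and 71 of 111 members and at most 5.53% of them in 1 cell. In the other T cells its ratio was 0.06, and in members drawn from thinned barcodes 0.42. Malat1, a nuclear RNA found in 158 of 159 and 111 of 111 members, stood at 12810 and 20919 CPM, a ratio of 0.71 against 0.17 in the other T cells, and 0.22 without proliferating members. Cflar, the inhibitor of caspase-8, stood at 54.4 and 119 CPM, a ratio of 1.12 that was 0.37 without the members over 20000 UMIs. Tmem108, Gm26669, Rflnb and Pdcd2 had ratios of 1.90, 1.51, 1.24 and 1.30.

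Tnf, the inflammatory cytokine, and Mgl2, a lectin of dendritic cells and macrophages, rested on single cells. Tnf had 45 UMIs in 15 of 159 control members and 95 UMIs in 9 of 111 exposed members, a ratio of 1.77. Of the 95, 47 and 38 lay in a pair of cells of 26100 and 23526 UMIs, and without members over 20000 UMIs the ratio was -1.49. For Mgl2 all exposed UMIs came from 1 cell. Among the lower genes Ccl17, a chemokine of dendritic cells, drew 83.2% of its control UMIs from 1 cell, and Ccl4, a chemokine of activated lymphocytes and myeloid cells, drew 42.4% from 1 control cell. None of these 4 describes the members in general.

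**Figure D4:**
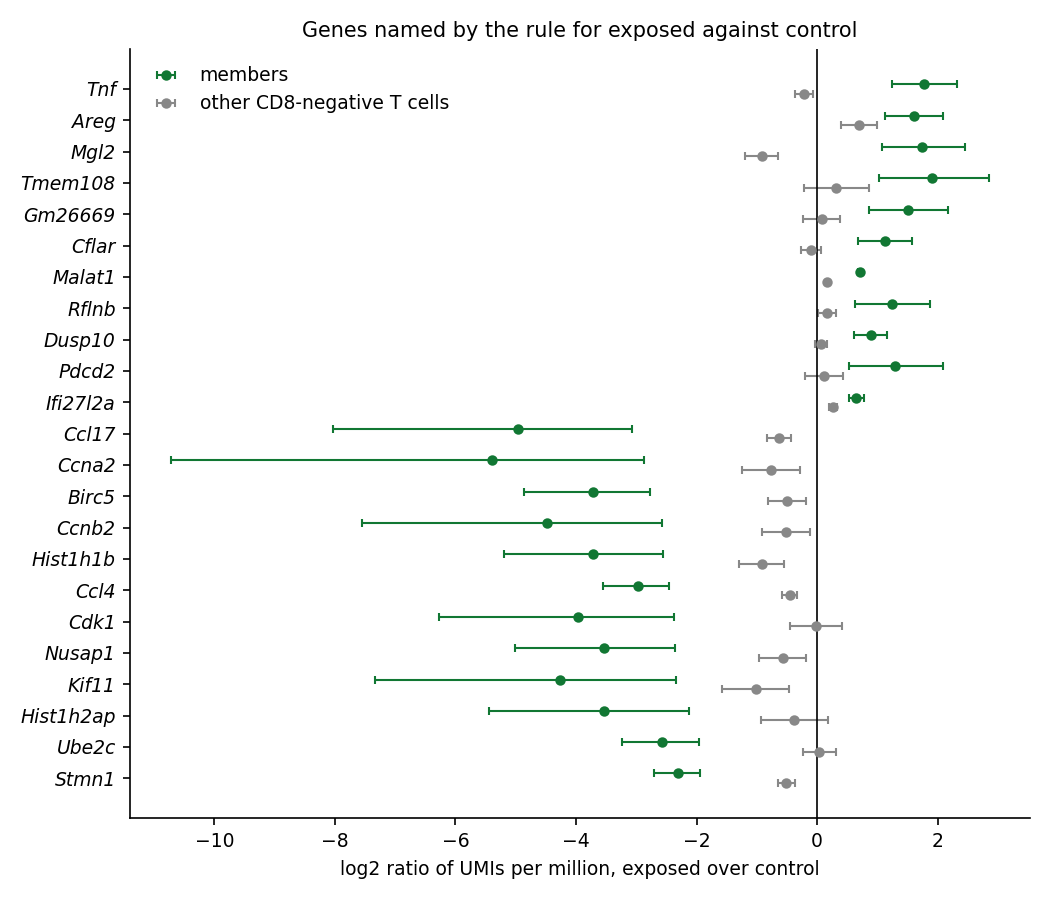
Log2 ratio of CPM, exposed over control (x axis), for genes named by the size of their ratio in members, with the same ratio in the other CD8-negative T cells; points are ratios and bars exact 95% intervals for counting error. Most of the lower genes belong to the cell cycle, and Tnf and Mgl2 lie on opposite sides of 0 in the 2 populations.

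Cell cycle genes made up most of the genes named as lower. Of 18 such genes 17 were lower in exposed members by more than 1.5-fold and 0 higher, with a median ratio of -2.11, against 6 of 18 lower and a median of -0.52 in the other T cells. Stmn1, which encodes the tubulin-binding stathmin, stood at 386 and 77.5 CPM, a ratio of -2.32. Cdk1, the mitotic kinase, had a ratio of -3.97, Ccna2 and Ccnb2, cyclins of division, ratios of -5.39 and -4.47, and Birc5, which encodes survivin, -3.72. The histone genes Hist1h1b and Hist1h2ap, the spindle genes Nusap1 and Kif11, and Ube2c, a mitotic ubiquitin conjugase, were the others.

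Few cells carried this difference. Members with a UMI of Mki67 or Top2a numbered 25 of 159 (15.7%) and 16 of 111 (14.4%), a ratio of 0.917 (0.457 to 1.79), so the share of cells with a proliferation gene hardly differed. A median member held 10 UMIs of the 18 genes in control and 12 in exposed cells. Members with at least 100 such UMIs numbered 13 and 3. The 11 control members over 20000 UMIs held 71.1% of all cell cycle UMIs and the 7 exposed ones 35.7%, and without them the median ratio of the list was -0.21. Without the members that held Mki67 or Top2a it was 0.02, and it was 0.87 where members with any UMI of another lineage were left out.

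**Figure D5:**
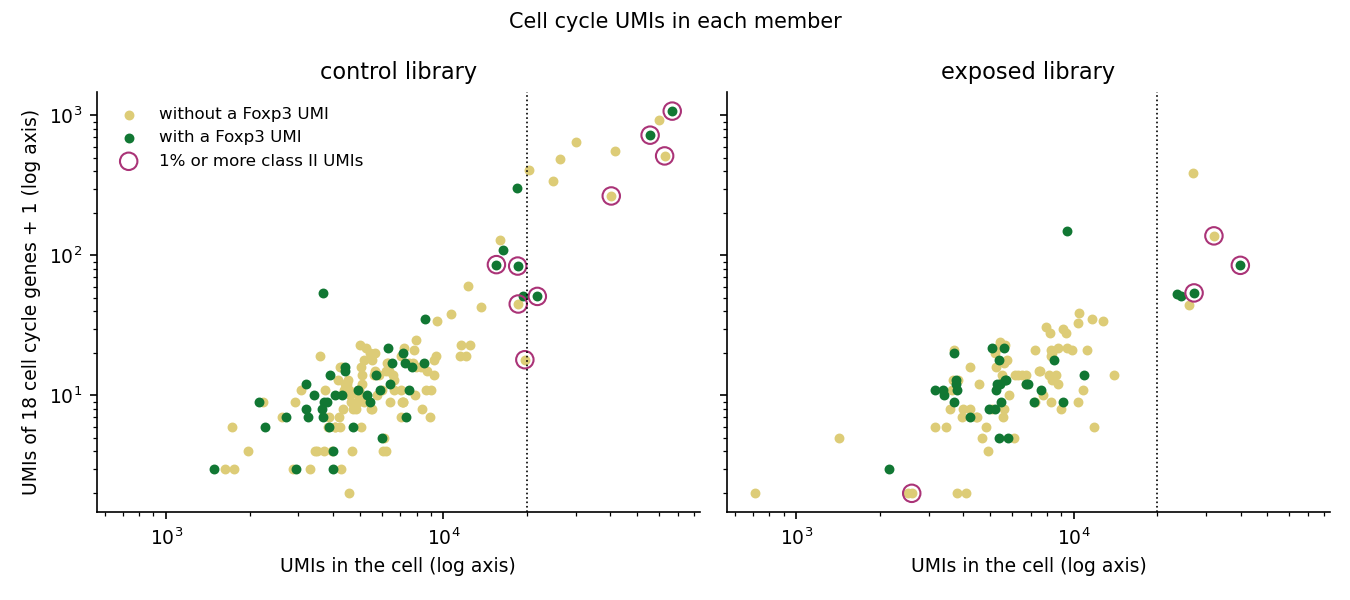
UMIs of 18 cell cycle genes plus 1 (y axis, log) against all UMIs (x axis, log) in each member, for the control (159 cells) and exposed (111 cells) libraries; circles mark members with at least 1% of their UMIs from class II genes, and the dotted line marks 20000 UMIs. The control members with the most cell cycle UMIs lie mostly to the right of the line.

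Genes of other cell types moved with some of these values, and their part in the results was not tested. The 11 genes of the B cell and class II list summed to 21035 and 11743 CPM in the Foxp3 arm, 9859 and 5439 CPM in all members and 7731 and 5917 CPM in the other T cells, with 8 and 7 genes detected in the Foxp3 arm. Of B cell genes, Ms4a1 had 0 UMIs in that arm, while Ighm, the IgM heavy chain, reached 343 and 348 CPM, compared with 133 and 106 CPM among the other T cells. After thinning, Ighm was present in 37.0% and 31.4% of members with Foxp3, 18.8% and 13.5% of those without and 20.9% and 15.4% of the other T cells. In the Foxp3 arm 5 of 47 control and 2 of 35 exposed cells drew at least 1% of their UMIs from Cd74, H2-Aa, H2-Ab1 and H2-Eb1. These few cells held 99.3% and 95.6% of the class II UMIs of the arm and 42.4% and 23.4% of all its UMIs, at a median of 21807 and 33571 UMIs per cell against 4415.5 and 5390 in the rest. The macrophage and monocyte list of 14 genes summed to 3532 and 4492 CPM in the Foxp3 arm, with 14 and 12 genes detected, and its 5 highest cells held 95.0% and 97.1% of it. The other T cells had 8041 and 7637 CPM.

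The lists of the remaining types were lower. Over control and exposed members with Foxp3, the NK cell list of 9 genes summed to 845 and 321 CPM, the neutrophil list of 10 to 645 and 934 CPM, the list of 10 genes of group 2 innate lymphoid cells to 126 and 97.6 CPM, and the list of 10 genes of activated CD4 T cells to 350 and 575 CPM. The γδ list of 8 genes summed to 102 CPM in the control and to 0 UMIs in the exposed library, and all 13 Trdc UMIs of the former lay in 1 cell. Members over 20000 UMIs numbered 11 and 7 and carried 32.6% and 23.5% of the UMIs of all members, so every summed level above weighs those cells most.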

How the data were processed

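Single-cell RNA was measured in 1 library each of unexposed and DEP-exposed CD45+ lung cells. The deposited values were raw UMI counts, which the authors produced with Cell Ranger on mm10. Per the submitters' processing notes its version was 3.1.3 and per the file headers 3.1.0, which was not resolved. The libraries held 10312 and 10000 barcodes with 62047730 and 67030914 UMIs over 31053 genes. Barcodes under 500 UMIs, under 200 genes or over 10% mitochondrial UMIs were dropped, which left 9691 and 9396 with a median of 3886 and 4416 UMIs. Doublets were scored per library from simulated pairs but left in. An alternative removed the expected number (0.8% per 1000 cells), 751 and 706 barcodes, among them 5 and 7 members. These included 1 of the 47 control and 4 of the 35 exposed members with Foxp3.

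UMIs were summed per library and population. CPM carry exact Poisson intervals, log2 ratios exact conditional binomial ones and shares exact Clopper-Pearson ones at 95%. A population's depth, 286971 to 6674830 UMIs, set their width, and reads were not seen, so errors before counting are not covered. Python 3.11.15, numpy 2.4.6, scipy 1.17.1, pandas 2.3.3 and scikit-learn 1.9.0 were used, and the ratio step was tested on simulated data. For Foxp3 in B cells and neutrophils a share of 0 was set against that of 3 cells, and no ratio was formed where both sums were at most 3.

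Members and gene lists were chosen with earlier results of these data known, and the marker and gene lists for other cell types likewise. Named were, among genes with at least 50 UMIs, the 12 highest and 12 lowest ratios by the interval bound nearest 0 beyond 1.2-fold, without mitochondrial, ribosomal, sex-linked, immunoglobulin and receptor variable genes, rule genes and genes whose level was below 0.5 times that in all other barcodes. Against the other T cells the 12 highest and 8 lowest in both libraries were named, per list the 4 genes with most UMIs and the 2 with the largest bound, and a fixed set of regulatory T cell genes. Genes beyond this rule, such as Ikzf4, Gpr83, Tcf7, Cyp1a1, Nqo1, Itgae, Ifng, Il2 and those the text calls named for passing, were chosen after their values were seen. Some genes of the rule and lists are not reported here. Positions are from the mm10 annotation. Alternatives changed the count minimum, cell filters, the member rule, doublets, depth, weighting and centring. Leaving out members over 20000 UMIs or rich in class II genes was added after seeing the data.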

Additional observations from a re-analysis of the deposited data

Results flagged for a closer look

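Foxp3 UMIs were also present in kept barcodes that were not members, 23 control and 10 exposed ones. The control barcodes lacked a Cd3 UMI in 5 cases and held a Cd8a or Cd8b1 UMI in 4, a Cd79a UMI in 14, an Ncr1 UMI in 1 and 1% or more S100a8 and S100a9 in 2, where a barcode can fail on several counts. The exposed barcodes failed in 2, 3, 2, 2 and 3 cases by the same steps. These cells entered no comparison.

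Tnf had a log2 ratio of 1.77 in members and -0.21 in the other CD8-negative T cells. For Mgl2 the ratios were 1.75 and -0.92. Each gene thus lay on opposite sides of 0 in the 2 populations, and with 1 library per group the difference was not tested.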

How the results depend on the processing

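No paired analysis was possible because each group is 1 library, and for the same reason no library could be left out. The ratios of member shares, exposed over control, stayed within their reported intervals in each alternative that was run for them, though the shares themselves were lower after thinning. The ratio among CD8-negative T cells, reported with an upper bound of 0.938, had bounds of 1.24 with Foxp3 required, 1.03 with at least 2 Foxp3 or 6 UMIs of the other genes and 1.03 without other-lineage UMIs, so its interval then spanned 1. The 220 higher genes became 583 at a minimum of 20 UMIs, 80 at 100, 339 with a Cd4 UMI and no Trdc UMI required, 64 without members holding any UMI of another lineage, 13 after thinning and 116 without members over 20000 UMIs. The 529 lower genes became 1183 and 201 at those minimums, 209 with Foxp3 required, 138 without other-lineage UMIs, 24 after thinning and 322 without proliferating members. Most of these alternatives test fewer genes or cells. The homing list median of 0.26 was -0.0455 without other-lineage UMIs, -0.0445 after thinning and -0.0447 without proliferating members, and the tissue list median of -0.20 was 0.03 with Cd4 required. Among ratios and medians whose reported interval excluded 0, signs turned as follows, and the cause was not tested. Without other-lineage UMIs the cell cycle median was 0.866, Cflar -0.103, Ifi27l2a -0.866, Stmn1 4.32 and Gata3 of the Foxp3 arm 1.15. Without proliferating members the cell cycle median was 0.0170 and Ctla4 of the Foxp3 arm -0.475. After thinning, Ccr7 was -0.678 and Ccr7 of the Foxp3 arm -0.199. Without members over 20000 UMIs, Tnf was -1.49 and Ube2c 0.812. In the Foxp3 arm Tnfrsf4 was -0.0572 with Cd4 required, Ctla4 -0.254 without class II-rich members and Tnf -0.818 without its highest cell. Mgl2 was -2.27 with doublets removed. Over the named genes reported here, 432 of the values from alternatives lay within the counting interval of the reported ratio and 127 moved beyond it. Another 13 turned sign, which was counted only for ratios whose interval excluded 0. Sign changes of the other ratios are among the 432 and 127.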
